A study of Caenorhabditis elegans with 26 samples.

Results

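The F-box genes named fbxa, fbxb and fbxc in Caenorhabditis elegans were examined as targets of small RNAs in 3 genotypes. A gene was counted as a member when its name in genome build WBcel235 began with fbxa-, fbxb- or fbxc- and when its transcripts held at least 20 reads in all over the 6 libraries without a tethered protein. This rule gave 126 members of 391 genes with such names and of 22271 genes in the count table, made up of 76 of 222 fbxa genes, 30 of 113 fbxb genes and 20 of 56 fbxc genes. Of the members, 97 are protein-coding genes and 29 are pseudogenes. The members were thus chosen by their summed reads in these libraries, and their levels are a description of genes picked for having reads.

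Small RNAs were taken from worms of 3 genotypes with 2 libraries each. They were rde-3 mut-16(DE6R), called the double mutant from here on, mut-16(DE6R), and wild-type worms (WT). Both mutant groups carry the mut-16 allele that the labels call DE6R, and the double mutant carries in addition an rde-3 mutation whose allele is not named. The labels give no age, stage, strain or number of worms, and whether a genotype's libraries are from separate cultures is not stated. The p-values therefore measure only how far these libraries lie apart, a spread that may be technical. The 20 libraries of tethered strains in the same study were not used for these genes.

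F-box proteins are the adaptor subunits of SCF ubiquitin ligases: the F-box binds a SKP1-related protein, which links the adaptor to the cullin CUL-1, and the rest of the protein recruits a substrate for ubiquitylation. The nematode genome holds a much enlarged set of F-box genes, many of them in tandem arrays on chromosome arms, and fbxa proteins share a C-terminal domain named after FOG-2, an F-box protein needed for sperm production in hermaphrodites. Most individual genes of the 3 families have no function sure enough to state here. In C. elegans, RNA-dependent RNA polymerases copy target transcripts into secondary small RNAs at perinuclear mutator foci. MUT-16 is the scaffold of these foci, and RDE-3 is an enzyme that puts tails of alternating uridine and guanosine on target RNAs, which makes them templates for the polymerases. Treatment with PIR-1, as used for these libraries, removes phosphates from the triphosphate ends of such small RNAs so that they can be ligated and sequenced.

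The libraries held between 515300 and 584502 reads in the double mutant, between 620047 and 1571194 in mut-16(DE6R) and between 1149904 and 1359593 in WT. One gene, F56H9.8, took 55.5% of all reads in the double mutant, 37.6% in mut-16(DE6R) and 50.6% in WT, so levels are given as CPM after scaling by the trimmed mean of M-values (TMM). Other scalings moved the all-gene median of the log2 fold change as far as 1.09 in mut-16(DE6R) against WT, 1.22 in the double mutant against WT and 0.38 between the mutants, and changes are therefore read against that median. Library totals called 3394 genes higher and 1005 lower in mut-16(DE6R) against WT, where TMM called 1173 higher and 1944 lower. They called 2944 higher and 1544 lower in the double mutant against WT, where TMM called 1424 higher and 2015 lower. Between the mutants, totals without F56H9.8 called 2028 higher and 1141 lower in the double mutant, where TMM called 877 higher and 1393 lower. The libraries of each genotype differed from each other by more than counting noise and were kept as separate replicates. This excess was small in the mutants, with a chi-square per degree of freedom of 1.16 in the double mutant and 1.11 in mut-16(DE6R). In WT it was 1.80. The sources used here do not say whether reads were counted by strand or how reads that match several copies were placed. Reads from near-identical F-box genes or from an overlapping gene can then not be told apart, and 16 members overlap another coding gene or pseudogene, 8 of them one on the other strand. The tissue cannot be checked in whole worms, and fewer cells of a type and less small RNA per cell cannot be told apart.

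Reads were spread very unevenly within the families. No read fell on 35 fbxa, 9 fbxb and 16 fbxc genes, and 111, 74 and 20 genes of these families had 1 to 19 reads. The members held 98.5% of the reads on fbxa genes, 97.1% of those on fbxb genes and 98.8% of those on fbxc genes. The 5 most-read genes alone held 52.6% of fbxa reads, 80.0% of fbxb reads and 83.5% of fbxc reads. The members just inside the threshold were fbxa-181 and fbxa-196 with 20 reads each, and fbxa-51 and fbxb-103 lay just outside it with 19 reads each. All members had reads in WT, and 14 of the 126 had none in the double mutant. Members were picked by reads summed over these libraries, and the 3 families had 40049 reads in WT and 2419 in the double mutant. This difference therefore follows in part from the rule.

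The families sit in different parts of the genome. Chromosome V holds 36 of the 76 fbxa members, chromosomes I and III hold 12 each, X holds 8, II holds 7 and IV holds 1. Chromosome II holds 18 of the 30 fbxb members and 15 of the 20 fbxc members. When family genes less than 20 kb apart were joined, 68.0% of the 391 genes lay in clusters of 3 or more, with similar shares of fbxa (65.8%), fbxb (70.8%) and fbxc (71.4%) genes. Position in a cluster did not fix whether a gene had reads. The largest cluster, 33 fbxa genes between 1236015 and 1349450 on chromosome III, held 7 members and no gene above 194 reads. A cluster of 17 fbxa genes between 2217173 and 2314035 on the same chromosome held no member, and its best-covered gene had 15 reads. All 10 fbxc genes between 891239 and 911196 on chromosome IV had 0 reads in the 6 libraries. In the annotation 11 family genes share 4 gene names (fbxc-4, fbxc-5, fbxc-8 and fbxa-41). Of these, 9 are fbxc genes of that chromosome IV cluster and 2 are fbxa genes on X. All 11 had 0 reads, and how the authors' counting treats identical copies was not tested.

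In fbxb and fbxc the same gene had the highest level per length in every genotype, whereas in fbxa it was fbxa-206 in the double mutant, fbxa-203 in mut-16(DE6R) and fbxa-193 in WT. Per kilobase of exon, fbxb-14 stood at 202 CPM in the double mutant, 1828 CPM in mut-16(DE6R) and 3794 CPM in WT. For fbxc-43 these levels per kilobase were 83.7 CPM in the double mutant, 864 CPM in mut-16(DE6R) and 2556 CPM in WT. For the pseudogene fbxa-193 they were 54.3 CPM in the double mutant, 782 CPM in mut-16(DE6R) and 1926 CPM in WT. The pseudogene fbxa-203 stood at 119 CPM per kilobase in the double mutant, 1006 CPM in mut-16(DE6R) and 1636 CPM in WT. Most members lay far below these genes: the median WT level per kilobase was 36.0 CPM for fbxa, 29.8 CPM for fbxb and 31.9 CPM for fbxc members. A level of 100 CPM per kilobase was reached by 3 members in the double mutant, 13 in mut-16(DE6R) and 36 in WT, of which 23 are fbxa, 9 fbxb and 4 fbxc genes.

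As a share of all reads, genes of the 3 families together made up 0.220% ± 0.0009 in the double mutant, 1.18% ± 0.005 in mut-16(DE6R) and 1.59% ± 0.03 in WT (SD, n = 2 each). All fbxa genes held 0.154% of reads in the double mutant, 0.793% in mut-16(DE6R) and 0.936% in WT. The fbxb genes held 0.0361% in the double mutant, 0.230% in mut-16(DE6R) and 0.434% in WT. The fbxc genes held 0.0300% in the double mutant, 0.152% in mut-16(DE6R) and 0.224% in WT. The 2 libraries of a genotype lay close together, and the genotypes did not overlap in any of the 3 families. When F56H9.8 and the mitochondrial genes were left out of the total, the order stayed the same, with 0.550% in the double mutant, 2.02% in mut-16(DE6R) and 3.38% in WT for the 3 families together. With 2 libraries against 2, an exact two-sided permutation test cannot go below p = 0.333, so no p-value is given for these shares.

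**Figure D1:**
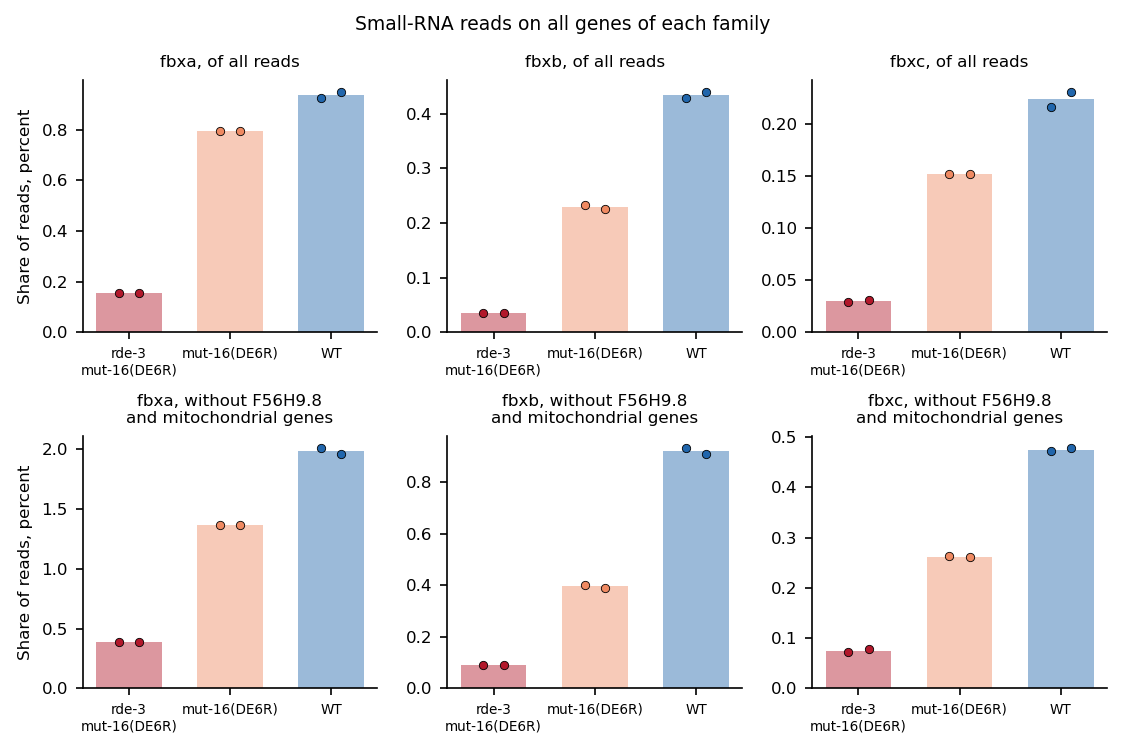
Share of small-RNA reads on all genes of each family, in percent of all reads (upper row) and of reads without F56H9.8 and the mitochondrial genes (lower row), where bars are means of 2 libraries and points are libraries. In each panel the double mutant is lowest and WT highest, with fbxb at 0.0361% against 0.434% of all reads.

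The families lost reads to a different extent, which a ratio taken inside each library shows without any scaling between libraries. The reads on fbxb genes over those on fbxa genes stood at 0.236 and 0.234 in the double mutant, 0.295 and 0.285 in mut-16(DE6R), and 0.464 in both libraries of WT. Both mutants lay below WT with no overlap. Both alternatives kept mut-16(DE6R) below WT: this held for protein-coding genes alone, with means of 0.657 in mut-16(DE6R) and 0.850 in WT, and with the most-read gene of each family left out, with means of 0.114 in mut-16(DE6R) and 0.354 in WT. For fbxc over fbxa the ratio was 0.188 and 0.203 in the double mutant, 0.192 in both libraries of mut-16(DE6R), and 0.235 and 0.244 in WT. That order did not hold for protein-coding genes alone, where the fbxc to fbxa ratio averaged 0.424 ± 0.008 in mut-16(DE6R) and 0.412 ± 0.01 in WT (SD, n = 2 each). With the most-read gene of each family left out, the double mutant stood above WT, with a mean of 0.143 in the double mutant and 0.0908 in WT. The smallest p that an exact permutation test allows here is again 0.333.

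Sets of genes known from particular tissues differed between the genotypes as well. Without F56H9.8 and the mitochondrial genes, 10 intestinal genes held 0.193% of reads in the double mutant, 0.0642% in mut-16(DE6R) and 0.00826% in WT. The share of 8 body wall muscle genes was 0.0706% in the double mutant, 0.0183% in mut-16(DE6R) and 0.00499% in WT. That of 8 neuronal genes ran the other way, with 0.00709% in the double mutant, 0.0306% in mut-16(DE6R) and 0.0408% in WT. Sperm genes, 64 in all, held 0.0284% in the double mutant, 0.0387% in mut-16(DE6R) and 0.0302% in WT. Of the 10 intestinal genes 7 passed the filter, and all 7 rose in each mutant against WT, while ifb-2 had no read. Of 5 tested muscle genes, 4 rose in the double mutant and 2 in mut-16(DE6R) against WT, and of 4 tested neuronal genes 3 fell in each mutant and 1 rose in mut-16(DE6R). Only 5 sperm genes were tested, of which 4 fell in the double mutant and 2 in mut-16(DE6R) against WT, and 25 of the 64 had no read. Over all genes tested, 22.1% were called higher and 36.6% lower in mut-16(DE6R) against WT, and 26.8% and 37.9% in the double mutant. The muscle, neuronal and sperm counts rest on 4 or 5 tested genes each, too few to be set against these shares. The part of these sets in the F-box results was not tested.

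For the comparisons of genotypes, edgeR's quasi-likelihood test was run on 5312 genes that passed a filter on low counts, with p-values adjusted over all of them by the Benjamini-Hochberg method. Of the 126 members, 90 passed the filter: 57 fbxa, 17 fbxb and 16 fbxc genes. Only 19 of these 90 had 10 or more reads in every library, so many passed through the genotype in which they were high, and the counts below describe the genes that passed. The other 36 members had 20 to 52 reads each. Together those 36 held 41 and 42 reads in the double mutant, 117 and 239 reads in mut-16(DE6R), and 297 and 402 reads in WT.

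In mut-16(DE6R) against WT, most tested F-box genes had fewer small-RNA reads, and fbxb was lowered most. All 17 tested fbxb members fell, with a median log2 fold change of -3.38. Among fbxa members, 44 of 57 fell and 3 rose, with a median of -1.74. Among fbxc members, 13 of 16 fell and 1 rose, with a median of -2.09. Over all genes tested, 36.6% were called lower and 22.1% higher, and the median log2 fold change was -0.09. Members that lost more than 8-fold were 12 of 17 in fbxb, 13 of 57 in fbxa and 5 of 16 in fbxc. The lower quartile of the log2 fold change over all genes tested was -1.21, short of 8-fold. A difference between families over their members was not tested, since members are not replicates of a genotype. Without a filter on low counts 26 fbxb members fell, and likewise 26 when either double mutant library or the first mut-16(DE6R) library was left out, because more genes were tested. Without a filter the fbxb median was -2.56. The rises were less stable: without mut-16(DE6R) replicate 2, WT replicate 1 or WT replicate 2, 1 fbxa member rose, and without either of the first 2 of these no fbxc member did.

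The rises in this comparison changed with the scaling. With library totals instead of TMM factors, 15 of 57 fbxa members rose and 30 fell. Of 17 fbxb members 16 fell and none rose, and of 16 fbxc members 2 rose and 10 fell. Over all 5312 genes tested, library totals called 3394 higher and 1005 lower. The family medians stayed below 0 under every scaling tried, at -0.56 for fbxa and -0.91 for fbxc with library totals, and lower for fbxb. Set against the median of all genes, which library totals moved to 1.09, these are the same shifts as with TMM factors. That holds by construction, since a scaling moves all genes by nearly the same amount. At protein-coding members alone, with TMM factors, 28 of 40 fbxa genes fell, with a median of -1.67, beside 44 of 57 with pseudogenes. Of all 4953 tested protein-coding genes 33.5% were called lower, and their median was -0.03.

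**Figure D2:**
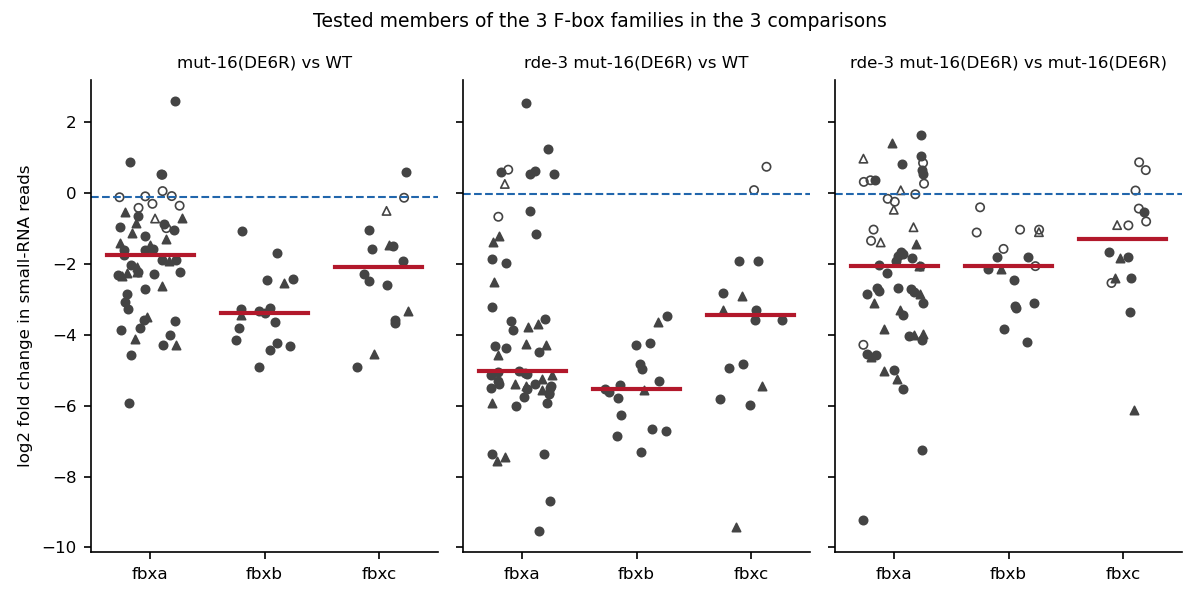
Log2 fold change in small-RNA reads of each tested member in the 3 comparisons, with circles for protein-coding genes, triangles for pseudogenes, filled symbols for adjusted p under 0.05, red bars for family medians and a dashed line for the median of all genes. All fbxb points lie below the dashed line in all 3 panels, while 3 fbxa members and 1 fbxc member were called higher in mut-16(DE6R); 6 members with 0 reads in the double mutant are drawn at fitted values that are no measure of size.

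By its median the fbxb family shows the largest loss of the 3 in mut-16(DE6R). The best-covered gene, fbxb-14 (chromosome II, 582111 to 582749, minus strand), had 121 and 136 CPM in the double mutant, 1172 and 1164 CPM in mut-16(DE6R), and 2349.9 and 2499 CPM in WT. It was -1.06 ± 0.07 (log2 ± SE) in mut-16(DE6R) against WT, a fall that library totals turned to 0.14 (adjusted p = 0.0632), and it overlaps the gene W08F4.12. The next, fbxb-97 (chromosome II, 1846977 to 1848161, minus strand), had 53.8 and 39.1 CPM in the double mutant, 65.5 and 58.6 CPM in mut-16(DE6R), and 1309 and 1319 CPM in WT. Its log2 fold change in mut-16(DE6R) against WT was -4.43 ± 0.10 (SE), and no difference between the 2 mutants was called. The gene fbxb-24 had 4.61 and 5.40 CPM in the double mutant, 11.9 and 20.5 CPM in mut-16(DE6R), and 552 and 533 CPM in WT. The log2 fold change of this gene in mut-16(DE6R) against WT was -4.90 ± 0.15 (SE), and it overlaps faah-4, which encodes a fatty acid amide hydrolase, on the other strand. In fbxb-100 the change was -3.80 ± 0.12 (SE; adjusted p = 1.65e-228), with 12.3 and 17.5 CPM in the double mutant, 52.4 and 53.8 CPM in mut-16(DE6R), and 761 and 730.2 CPM in WT. The lower-covered fbxb-45 and fbxb-99 fell by 4.22 and 4.30 on the log2 scale, and in each of these genes both mut-16(DE6R) libraries lay below both WT libraries.

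Within fbxb the extent of loss in mut-16(DE6R) ranged widely. The gene fbxb-85 (chromosome III, 10847614 to 10848963, minus strand) had 9.23 and 17.5 CPM in the double mutant, 201 and 192 CPM in mut-16(DE6R), and 634 and 629.8 CPM in WT, a log2 fold change in mut-16(DE6R) against WT of -1.70 ± 0.09 (SE; adjusted p = 4.06e-70). The pseudogene fbxb-4 had 1 and 4 reads in the double mutant, 9 and 39 reads in mut-16(DE6R), and 109 and 151 reads in WT, and its log2 fold change was -3.43 ± 0.20 (SE; adjusted p = 4.35e-62). None of the tested fbxb members had overlapping libraries between mut-16(DE6R) and WT, and neither did 51 of 57 fbxa and 15 of 16 fbxc members. With 2 libraries against 2, the exact two-sided permutation p of such a split is 0.333, so it is a description only. The share of all genes tested that were split in this way was not counted, so the split is not read as a trait of the families.

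**Figure D3:**
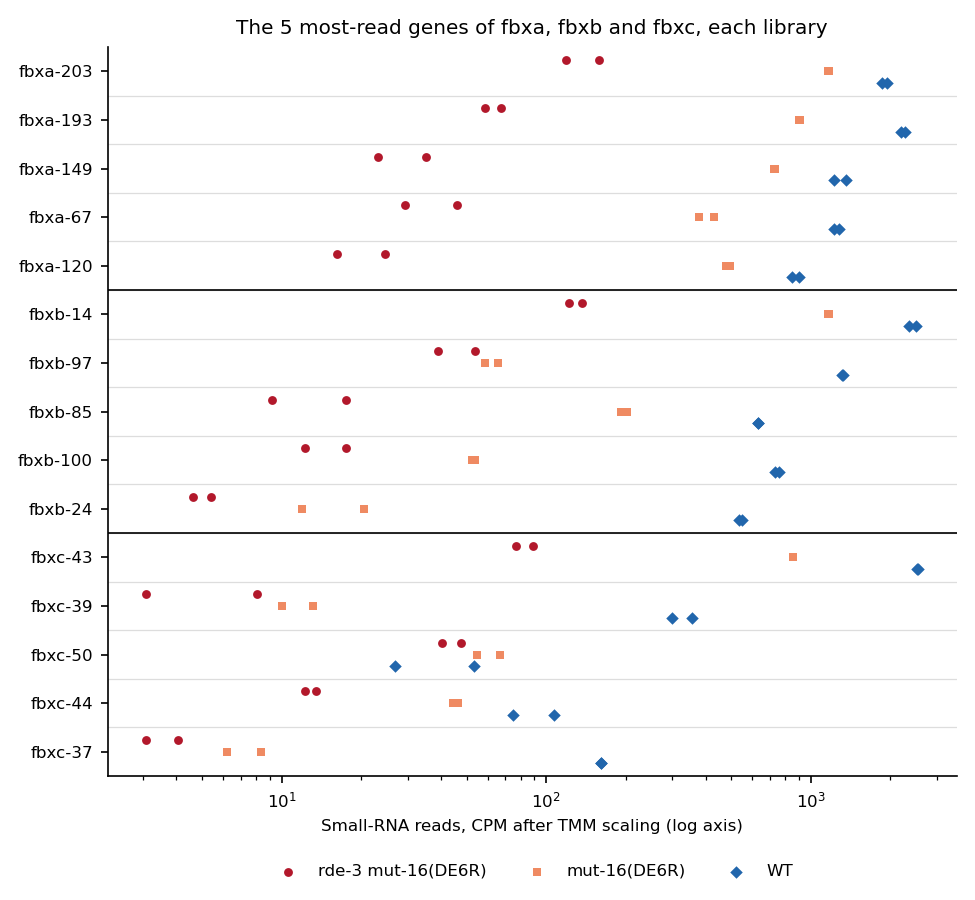
Small-RNA reads in CPM (log axis) of the 5 most-read genes of each family, with 2 points per genotype for the 2 libraries. fbxb-97, fbxb-24 and fbxc-39 were low in mut-16(DE6R) already, whereas fbxa-203 and fbxb-14 were at 1162 CPM or above there. At fbxc-50 the double mutant and WT overlapped.

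In fbxa, the 5 genes with most reads had log2 fold changes between -1.61 and -0.70 in mut-16(DE6R) against WT. The pseudogene fbxa-203 (chromosome I, 3371769 to 3373834, plus strand) had 158 and 119 CPM in the double mutant, 1174 and 1162 CPM in mut-16(DE6R), and 1942 and 1857 CPM in WT. Its log2 fold change in mut-16(DE6R) against WT was -0.70 ± 0.07 (SE; adjusted p = 5.27e-24), and it turned to 0.49 with library totals and 0.15 with totals that leave out F56H9.8. The pseudogene fbxa-149 had 23.1 and 35.1 CPM in the double mutant, 732 and 727 CPM in mut-16(DE6R), and 1223 and 1361 CPM in WT, and fbxa-120, a coding gene on chromosome X, had 24.6 and 16.2 CPM in the double mutant, 495 and 477 CPM in mut-16(DE6R), and 906 and 850.5 CPM in WT. Their log2 fold changes were -0.83 ± 0.07 and -0.86 ± 0.08 (SE), and library totals turned these to 0.37 and 0.34. A larger fall was seen for the pseudogene fbxa-193, with 58.4 and 67.5 CPM in the double mutant, 901 and 912 CPM in mut-16(DE6R), and 2269 and 2196 CPM in WT, and a log2 change of -1.30 ± 0.07 (SE; adjusted p = 1.49e-77). The most-read coding gene, fbxa-67 (chromosome III, 948493 to 950670, minus strand), had 29.2 and 45.9 CPM in the double mutant, 379 and 429 CPM in mut-16(DE6R), and 1226 and 1273 CPM in WT, and its change was -1.61 ± 0.08 (SE; adjusted p = 3.14e-92). It overlaps the pseudogene fbxa-23, which is listed at 0 reads, on the same strand.

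The deepest fbxa losses in mut-16(DE6R) were at genes with fewer reads. For fbxa-63 there were 5 and 3 reads in the double mutant, 2 and 12 reads in mut-16(DE6R), and 71 and 101 reads in WT, and the log2 fold change in mut-16(DE6R) against WT was -4.58 ± 0.30 (SE; adjusted p = 4.47e-52). The pseudogene fbxa-97 on chromosome X had 2 and 4 reads in the double mutant, 8 and 17 reads in mut-16(DE6R), and 114 and 134 reads in WT, a log2 change of -4.28 ± 0.24 (SE; adjusted p = 2.21e-71), and fbxa-76 had 1 and 1 reads in the double mutant, 3 and 6 reads in mut-16(DE6R), and 46 and 45 reads in WT, a log2 change of -4.28 ± 0.39 (SE; adjusted p = 8.78e-27). The gene fbxa-54 had 0 and 1 reads in the double mutant, 0 and 1 reads in mut-16(DE6R), and 13 and 29 reads in WT, which put mut-16(DE6R) 83.7-fold lower (95% counting interval 14.2 to 3384) than WT. No difference between the 2 mutants was called at these 4 genes.

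Among fbxc genes, fbxc-43 (chromosome II, 4234903 to 4235996, minus strand) held 33.6% and 36.3% of the family's reads in the double mutant, 76.4% and 75.1% in the mut-16(DE6R) libraries, and 67.7% and 65.5% in WT. It had 76.9 and 89.1 CPM in the double mutant, 858 and 857 CPM in mut-16(DE6R), and 2520.3 and 2550.2 CPM in WT, and its log2 fold change in mut-16(DE6R) against WT was -1.56 ± 0.07 (SE; adjusted p = 9.14e-112). Its neighbour fbxc-44 (chromosome II, 4236504 to 4237751, minus strand) had 12.3 and 13.5 CPM in the double mutant, 46.4 and 44.3 CPM in mut-16(DE6R), and 74.7 and 107 CPM in WT. The change of fbxc-44 in mut-16(DE6R) was -1.03 ± 0.20 (SE; adjusted p = 4.83e-07), which library totals turned to 0.16. A much deeper loss was seen at fbxc-39, with 3.08 and 8.10 CPM in the double mutant, 13.1 and 10.00 CPM in mut-16(DE6R), and 299 and 357 CPM in WT, and a log2 change of -4.90 ± 0.19 (SE; adjusted p = 5.99e-144). The X-linked pseudogene fbxc-37 changed by -4.54 ± 0.25, fbxc-28 by -3.66 ± 0.46 and fbxc-23 by -3.59 ± 0.23 on the log2 scale (SE).

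In the double mutant against WT, most tested members had fewer reads. All 17 fbxb members fell, with a median log2 fold change of -5.52. Of 57 fbxa members, 48 fell and 6 rose, with a median of -5.01, or -4.38 when the 5 genes without a read in the double mutant stand at the lowest fold their counts allow. Of 16 fbxc members, 14 fell and none rose, with a median of -3.43. Over all genes, 37.9% were called lower and 26.8% higher, and the median was -0.03. Losses of more than 8-fold were found in 41 of 57 fbxa, all 17 fbxb and 10 of 16 fbxc members. The lower quartile of the log2 fold change over all genes tested was -3.15, itself past 8-fold, so such losses were common over all genes. No fbxc member was called higher by edgeR or DESeq2, or had an unadjusted p under 0.05 in that direction. Library totals called 2 of the 16 higher, beside 2944 of all 5312 genes tested. Without WT replicate 1 the fbxa members that rose were 3, and without WT replicate 2 there was 1. Without the first library of either mutant, more genes passed the filter and 26 fbxb members fell. The fbxb median was -6.64 without double mutant replicate 2, and the fbxa median was -4.36 without mut-16(DE6R) replicate 1.

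Several of the most-read members, which had kept part of their reads in mut-16(DE6R), fell much further in the double mutant. Even so, fbxb-14 and fbxa-203 stayed among the members with the highest levels per kilobase there. The log2 fold change of the double mutant against WT was -3.79 ± 0.10 for fbxa-203, -5.14 ± 0.12 for fbxa-193 and -5.45 ± 0.14 for fbxa-149 (SE). For fbxb-14 it was -4.23 ± 0.10, and for fbxc-43 it was -4.92 ± 0.11. Several members fell to very few reads. The pseudogene fbxa-46 on chromosome X had 1 and 1 reads in the double mutant, 17 and 55 reads in mut-16(DE6R), and 187 and 218 reads in WT, which put the double mutant 191-fold lower (95% counting interval 52.5 to 1582) than WT. In fbxb-45 there were 2 and 1 reads in the double mutant, 15 and 42 reads in mut-16(DE6R), and 273 and 261 reads in WT, so the double mutant was 168-fold lower (95% counting interval 57.1 to 816) than WT. The gene fbxb-16, which overlaps fbxb-20, had 0 and 1 reads in the double mutant, 7 and 16 reads in mut-16(DE6R), and 71 and 74 reads in WT, and fbxb-95 had 0 and 1 reads in the double mutant, 10 and 36 reads in mut-16(DE6R), and 62 and 63 reads in WT. These single reads in the double mutant leave wide intervals: fbxb-16 was 137-fold lower (95% counting interval 24.2 to 5436) and fbxb-95 118-fold lower (95% counting interval 20.8 to 4692) than in WT.

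No read at all was found in the double mutant for 6 of the tested members. On chromosome X, fbxa-53 had 0 and 0 reads in the double mutant, 6 and 11 reads in mut-16(DE6R), and 63 and 78 reads in WT, and the pseudogene fbxc-38 had 0 and 0 reads in the double mutant, 4 and 22 reads in mut-16(DE6R), and 66 and 65 reads in WT. With a floor of 3 reads over the 2 libraries, the double mutant was at least 44.3-fold lower for fbxa-53 and at least 41.2-fold lower for fbxc-38 than WT. The pseudogene fbxa-70 had 0 and 0 reads in the double mutant, 6 and 8 reads in mut-16(DE6R), and 19 and 17 reads in WT, and the double mutant was at least 11.3-fold lower. These bounds cover counting error only.

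The comparison of the double mutant with mut-16(DE6R) asks how reads on these genes changed with the added rde-3 mutation. In fbxa, 35 of 57 tested members fell and 7 rose, with a median log2 fold change of -2.06, or -1.84 with genes at 0 reads set to their bound. In fbxb, 10 of 17 fell and none rose, with a median of -2.06. In fbxc, 8 of 16 fell and none rose, with a median of -1.29. Over all genes, 26.2% were called lower and 16.5% higher, and the median was -0.02. Where only these 2 genotypes entered the fit, 5 fbxb and 5 fbxc members fell. That fit tested 4170 genes in place of 5312, and its medians were -2.80 for fbxa, -2.82 for fbxb and -1.72 for fbxc. Leaving out 1 library at a time, the fbxb median ran between -3.27, without the second library of the double mutant, and -1.70. One fbxc member had an unadjusted p under 0.05 for a rise by edgeR and none did by DESeq2. Without the first library of either mutant, 4 fbxa members rose. Without the second library of the double mutant, 3 fbxc members fell, and without the second library of mut-16(DE6R), 5 did.

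At several of the most-read members a further fall was called in the double mutant. The log2 fold change of the double mutant against mut-16(DE6R) was -4.62 ± 0.15 (SE; adjusted p = 1.09e-196) for fbxa-149 and -4.58 ± 0.18 (SE; adjusted p = 1.06e-144) for fbxa-120. It was -3.84 ± 0.13 (SE; adjusted p = 2.14e-198) for fbxa-193, -3.42 ± 0.16 (SE; adjusted p = 7.31e-102) for fbxa-67 and -3.08 ± 0.10 (SE; adjusted p = 3.42e-187) for fbxa-203. In the other families it was -3.82 ± 0.23 (SE; adjusted p = 2.75e-60) for fbxb-85, -3.36 ± 0.12 (SE; adjusted p = 3.99e-169) for fbxc-43 and -3.17 ± 0.10 (SE; adjusted p = 4.66e-193) for fbxb-14. Genes that were low in mut-16(DE6R) already differed in this. At some of them no difference was called: fbxb-97 had -0.40 ± 0.21 (SE; adjusted p = 0.124), fbxc-39 had -0.91 ± 0.54 (SE; adjusted p = 0.167) and fbxc-37 had -0.90 ± 0.68 (SE; adjusted p = 0.29). In contrast, falls were called for fbxb-24 at -1.81 ± 0.50 (SE; adjusted p = 0.00115), for fbxb-4 at -2.14 ± 0.56 (SE; adjusted p = 0.000541) and for fbxc-23 at -2.39 ± 0.68 (SE; adjusted p = 0.00176), and also at fbxb-16 (adjusted p = 0.00346), where the double mutant had 1 read. Each of these called falls was lost in some other setting. Leaving out mut-16(DE6R) replicate 2 lost those of fbxb-24 and fbxb-4, and leaving out double mutant replicate 1 those of fbxb-4 and fbxb-16. Without double mutant replicate 2 that of fbxc-23 was lost, and DESeq2 did not call fbxb-16 (adjusted p = 0.0758). For fbxb-97 the test without a filter on low counts did call a fall, with adjusted p = 0.0283.

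The mutants differed in direction from WT at fbxa-125 (chromosome I, 10646478 to 10647841, plus strand). It had 0 and 0 reads in the double mutant, 62 and 166 reads in mut-16(DE6R), and 36 and 42 reads in WT. In CPM, the mut-16(DE6R) libraries stood at 73.8 and 79.0, above 53.8 and 52.1 in WT, with a log2 fold change of 0.55 ± 0.20 (SE; adjusted p = 0.0129). That rise was lost with DESeq2 (adjusted p = 0.262) and without WT replicate 1, WT replicate 2 or mut-16(DE6R) replicate 2, with adjusted p of 0.0549, 0.127 and 0.133. The double mutant was at least 36.0-fold lower than mut-16(DE6R) and at least 24.5-fold lower than WT. A like pattern was seen at fbxa-14, a gene of the largest cluster on chromosome III, with 0 and 0 reads in the double mutant, 17 and 40 reads in mut-16(DE6R), and 13 and 18 reads in WT. Between mut-16(DE6R) and WT no difference was called (-0.11 ± 0.36 (SE; adjusted p = 0.802)), although library totals gave a rise of 1.07 on the log2 scale (adjusted p = 0.00299), and the double mutant was at least 8.99-fold lower than mut-16(DE6R).

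**Figure D4:**
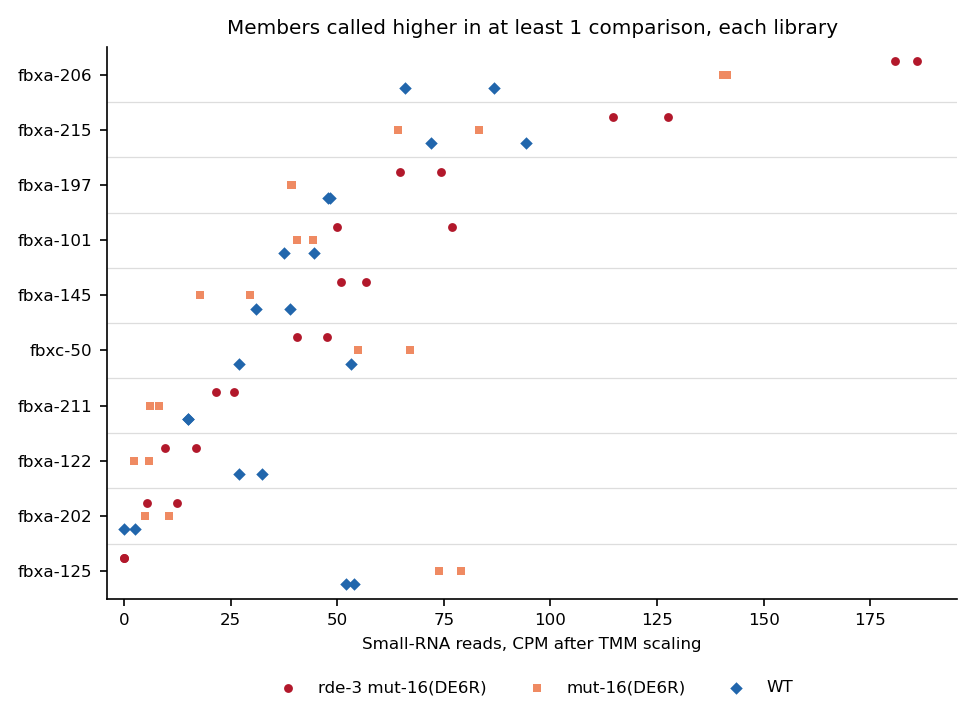
Small-RNA reads in CPM of the 10 members that were called higher in at least 1 comparison, with 2 points per genotype for the 2 libraries. fbxa-206 lies highest in the double mutant, at 186 and 181 CPM, and fbxa-125 stands at 0 there.

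A small set of fbxa members had more reads in a mutant. The one with the highest level in the double mutant is fbxa-206 (chromosome V, 16917201 to 16918478, minus strand), with 186 and 181 CPM in the double mutant, 140.5 and 141 CPM in mut-16(DE6R), and 65.8 and 86.8 CPM in WT. Its log2 fold change was 0.87 ± 0.16 (SE; adjusted p = 1.58e-07) in mut-16(DE6R) against WT and 1.25 ± 0.17 (SE; adjusted p = 5.48e-13) in the double mutant against WT. It had, in the double mutant, the highest level of any member after fbxb-14, at 156 against 202 CPM per kilobase. The further rise between the mutants, 0.38 ± 0.13 (SE; adjusted p = 0.0118), was lost with DESeq2, library totals, mitochondrial scaling or no filter. It was also lost when any 1 library of either mutant was left out, with adjusted p between 0.051 and 0.0891 in edgeR. The gene fbxa-202 had 8 and 4 reads in the double mutant, 4 and 22 reads in mut-16(DE6R), and 0 and 2 reads in WT. This put mut-16(DE6R) 6.52-fold higher (95% counting interval 1.63 to 56.7) than WT and the double mutant 6.36-fold higher (95% counting interval 1.42 to 58.5) than WT, and DESeq2 called neither (adjusted p = 0.137 for mut-16(DE6R) and 0.105 for the double mutant). Without the first library of the double mutant, its call against WT was lost as well (adjusted p = 0.212).

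The other rises of fbxa members were called in the double mutant, against WT or against mut-16(DE6R). For fbxa-215 (chromosome IV, 13665364 to 13666909, minus strand), the libraries had 128 and 115 CPM in the double mutant, 64.3 and 83.3 CPM in mut-16(DE6R), and 94.2 and 71.9 CPM in WT. Its log2 fold change was 0.56 ± 0.18 (SE; adjusted p = 0.00467) in the double mutant against WT. For fbxa-145 the libraries had 50.7 and 56.7 CPM in the double mutant, 17.9 and 29.5 CPM in mut-16(DE6R), and 38.9 and 31.0 CPM in WT, a log2 fold change in the double mutant against mut-16(DE6R) of 1.05 ± 0.26 (SE; adjusted p = 0.000211). Those of fbxa-197 and fbxa-211 in the same comparison were 0.83 ± 0.22 (SE; adjusted p = 0.000581) and 1.65 ± 0.43 (SE; adjusted p = 0.000494). Without a filter on low counts the rises of fbxa-145 and fbxa-197 between the mutants were lost (adjusted p = 0.0679 and 0.215). DESeq2 did not call that of fbxa-197 (adjusted p = 0.0795). The pseudogene fbxa-122 had 11 and 7 reads in the double mutant, 2 and 12 reads in mut-16(DE6R), and 18 and 26 reads in WT, and its rise in the double mutant against mut-16(DE6R), 1.42 ± 0.55 (SE; adjusted p = 0.0251), was lost in 6 of the other settings. Against WT, the rises of fbxa-101, fbxa-145 and fbxa-197 in the double mutant (adjusted p = 0.0296, 0.0353 and 0.04) were lost with DESeq2, without a filter and when WT replicate 2 was left out. Median-ratio factors also lost those of fbxa-145 and fbxa-197 (edgeR adjusted p = 0.0524 and 0.0625). With only the 2 genotypes in the fit, that of fbxa-197 was lost too (adjusted p = 0.0602).

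In fbxc, the exception was fbxc-50 (chromosome II, 3246316 to 3248123, minus strand), with 47.7 and 40.5 CPM in the double mutant, 54.8 and 67.1 CPM in mut-16(DE6R), and 26.9 and 53.3 CPM in WT. It was called higher in mut-16(DE6R) than in WT, 0.61 ± 0.22 (SE; adjusted p = 0.0112), and lower in the double mutant than in mut-16(DE6R), -0.52 ± 0.22 (SE; adjusted p = 0.0431), a fall that 7 other settings did not call. Its 2 WT libraries differ from each other about as much as the genotypes do. The call against WT was lost without WT replicate 1 (adjusted p = 0.482), without mut-16(DE6R) replicate 2 (adjusted p = 0.292) and with DESeq2 (adjusted p = 0.228). In fbxb, no member was called higher in the 3 comparisons by edgeR or DESeq2, and none had an unadjusted p under 0.05 in that direction.

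Pseudogenes hold much of the fbxa signal. The 23 pseudogene members of fbxa carry 21177 of the 41948 reads on fbxa members, mainly at fbxa-203, fbxa-193, fbxa-149 and fbxa-117. As a share of all reads, fbxa pseudogenes made up 0.0428% ± 0.001 in the double mutant, 0.448% ± 0.005 in mut-16(DE6R) and 0.440% ± 0.005 in WT (SD, n = 2 each). Without F56H9.8 and the mitochondrial genes these shares were 0.107% in the double mutant, 0.771% in mut-16(DE6R) and 0.933% in WT, so the direction between mut-16(DE6R) and WT depends on the total that is used. Of 23 tested pseudogene members in the 3 families, 21 fell in mut-16(DE6R) against WT, and over all 286 tested pseudogenes 79.7% were called lower. Against WT, 22 of 23 fell in the double mutant, beside 86.4% of all tested pseudogenes, and 15 of 23 fell between the mutants, beside 65.4%. Of all tested pseudogenes 4.9% were called higher in mut-16(DE6R) and 2.8% in the double mutant, each against WT, and 5.94% in the double mutant against mut-16(DE6R). Of the pseudogene members fbxa-122 alone was called higher, in the last of these comparisons. These shares are near those of pseudogenes as a whole.

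The pseudogenes with fewer reads differed from each other. For fbxa-117 (chromosome V, 18310924 to 18311985, plus strand) the libraries had 15.4 and 13.5 CPM in the double mutant, 214 and 241 CPM in mut-16(DE6R), and 899.9 and 863 CPM in WT, and the log2 fold change in mut-16(DE6R) against WT was -1.92 ± 0.09 (SE; adjusted p = 1.65e-104). For fbxa-129 they had 1.54 and 4.05 CPM in the double mutant, 105 and 94.7 CPM in mut-16(DE6R), and 136 and 148 CPM in WT, with a log2 fold change of -0.54 ± 0.15 (SE; adjusted p = 0.000771), a fall that was not called with DESeq2, without a filter, with mitochondrial or upper quartile scaling or without mut-16(DE6R) replicate 2, and that turned to 0.65 with library totals. The double mutant stood 32.7-fold below mut-16(DE6R) at fbxa-129, with adjusted p = 7.91e-38. The pseudogenes fbxa-146 and fbxa-207 changed by -2.08 ± 0.20 and -2.23 ± 0.23 on the log2 scale in mut-16(DE6R) against WT (SE). Here fbxa-207 lies next to fbxa-206, the gene that rose, in a cluster of 11 fbxa genes between 16889275 and 16968586 on chromosome V, and it had 3.08 and 6.75 CPM in the double mutant, 22.6 and 20.9 CPM in mut-16(DE6R), and 103 and 99.2 CPM in WT. Neighbours in this cluster thus differed in direction, as listed. However, fbxa-207 overlaps Y102A5C.2, another coding gene or pseudogene, on the other strand, and their reads may not be told apart.

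Genes within a tandem cluster also differed in level. In the cluster of 12 fbxa genes between 933422 and 963833 on chromosome III, 5 are members and 4 had no read. The gene fbxa-67 held 3119 of its reads. In the same cluster fbxa-60 had 3.08 and 2.70 CPM in the double mutant, 17.9 and 19.5 CPM in mut-16(DE6R), and 135 and 138 CPM in WT, and fbxa-11 had 9.23 and 14.8 CPM in the double mutant, 52.4 and 40.5 CPM in mut-16(DE6R), and 197 and 164 CPM in WT. Their log2 fold changes in mut-16(DE6R) against WT were -2.83 ± 0.21 and -2.02 ± 0.16 (SE). On chromosome V, the 5 genes between 17637982 and 17659385 include fbxa-193 and fbxa-129, with fbxa-192 at 13.8 and 16.2 CPM in the double mutant, 99.99 and 108 CPM in mut-16(DE6R), and 309 and 324 CPM in WT and fbxa-191 at 1.54 and 2.70 CPM in the double mutant, 16.7 and 16.2 CPM in mut-16(DE6R), and 29.9 and 54.5 CPM in WT. The fifth, fbxa-108, had 0 reads. The 4 members there had log2 fold changes in mut-16(DE6R) against WT between -1.59 and -0.54.

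**Figure D5:**
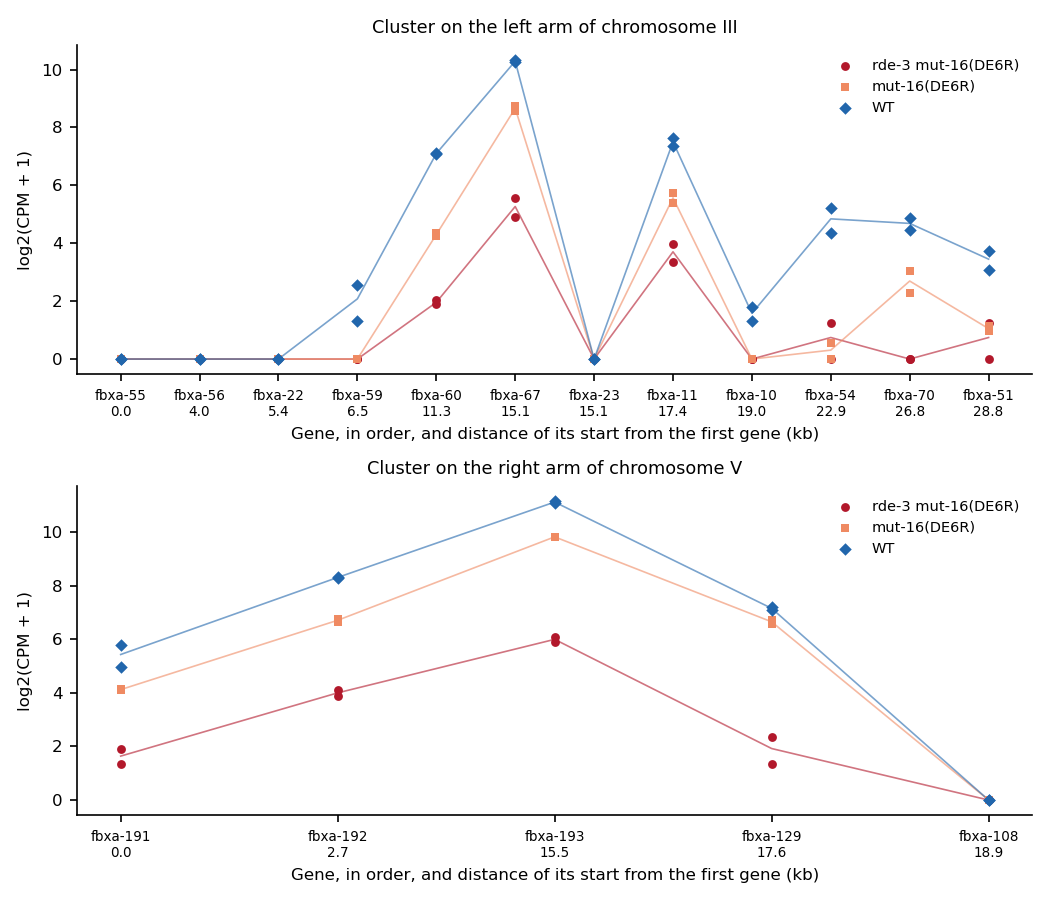
Small-RNA level, as log2(CPM + 1), of each gene in 2 tandem clusters of fbxa genes, with points for libraries, lines joining the means of a genotype, and the distance of each gene's start from the first gene in kb. Genes at 0 reads lie beside genes with many, such as fbxa-108 beside fbxa-129, and WT is highest at each gene with 20 or more reads.

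Genes for cullins, RBX proteins and SKP1-related proteins form a list that also holds cullins of ligases other than SCF. Of these 29 genes 9 passed the filter, too few to set the SCF genes against the 3 families. In mut-16(DE6R) against WT 3 of the 9 rose and 2 fell, with a median log2 fold change of 0.21. Over all genes 22.1% were called higher and 36.6% lower there. Against WT, 4 rose and 2 fell in the double mutant (median 0.57), and 3 rose and 2 fell against mut-16(DE6R) (median 0.20). The all-gene shares were 26.8% higher and 37.9% lower against WT, and 16.5% higher and 26.2% lower against mut-16(DE6R). The gene cul-1, which encodes the cullin of the SCF complex, had 254 and 208 CPM in the double mutant, 202 and 199 CPM in mut-16(DE6R), and 103 and 105 CPM in WT. Its log2 fold change was 0.94 ± 0.14 (SE; adjusted p = 3.71e-11) in mut-16(DE6R) and 1.14 ± 0.15 (SE; adjusted p = 1.08e-13) in the double mutant, each against WT. The gene cul-4, for a cullin of another ligase, had a log2 fold change of 1.14 ± 0.13 (SE; adjusted p = 1.54e-18) in mut-16(DE6R) against WT. Among the 9 tested genes, the SKP1-related gene skr-21 fell as far as many F-box genes, with 16.9 and 6.75 CPM in the double mutant, 26.2 and 25.7 CPM in mut-16(DE6R), and 779 and 714 CPM in WT and a log2 fold change of -4.84 ± 0.13 (SE; adjusted p = 5.79e-281) in mut-16(DE6R) against WT. Not tested was skr-10, with 0 and 0 reads in the double mutant, 2 and 6 reads in mut-16(DE6R), and 11 and 23 reads in WT. Another SKP1-related gene, skr-18, fell by 0.97 on the log2 scale there, and library totals turned this to 0.22. The RING protein gene rbx-1 had a log2 fold change of 0.89 ± 0.28 (SE; adjusted p = 0.00331) in the double mutant against WT, lost with DESeq2 and without the first double mutant library. For cul-2 the double mutant against mut-16(DE6R) had one of 1.51 ± 0.50 (SE; adjusted p = 0.00776), lost with DESeq2 and without the second library of either mutant.

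Of 12 F-box genes outside the 3 families, 4 passed the filter. The gene mec-15, known for a role in touch receptor neurons, had 38.4 and 31.0 CPM in the double mutant, 97.6 and 85.2 CPM in mut-16(DE6R), and 43.4 and 53.3 CPM in WT. It rose in mut-16(DE6R) against WT, 0.87 ± 0.20 (SE; adjusted p = 2.78e-05), and was lower in the double mutant than in mut-16(DE6R), -1.37 ± 0.22 (SE; adjusted p = 3.01e-09). The gene prom-1, which acts in meiotic chromosome pairing, had 103 and 113 CPM in the double mutant, 66.7 and 59.5 CPM in mut-16(DE6R), and 76.2 and 40.9 CPM in WT and rose in the double mutant against WT, 0.93 ± 0.20 (SE; adjusted p = 1.39e-05), a call lost without WT replicate 2 (adjusted p = 0.0964). The genes fsn-1 and ftr-1 were not called in any comparison, and fog-2 had 27 reads in all and was not tested.

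Genes with BTB or MATH domains include those for adaptors of CUL-3 ligases and, like the F-box genes, form an enlarged set in nematodes. By the same read minimum 53 of them qualified and 44 were tested. In mut-16(DE6R) against WT 34 fell and 2 rose, with a median log2 fold change of -1.42. Against WT, 33 fell and 4 rose in the double mutant, with a median of -4.45. Between the mutants, 26 fell and 3 rose in the double mutant, with a median of -2.32. In mut-16(DE6R) against WT the medians of fbxa, -1.74, and of fbxc, -2.09, stood closer to that of the BTB and MATH genes than did that of fbxb, -3.38. All BTB and MATH genes together held 0.157% of reads in the double mutant, 0.947% in mut-16(DE6R) and 1.18% in WT.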

How the data were processed

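Small RNAs from worms were treated with PIR-1, ligated and sequenced, per the labels' protocols. The authors deposited whole-number read counts per transcript, and cutadapt 4.9, Bowtie 1.3.1 and build WBcel235 are named in the submitters' processing notes. The counting tool, its strand setting and its handling of multiple matches were not given in the sources used here. All 34324 transcript identifiers were looked up in the Ensembl release 115 annotation of WBcel235 by transcript name (33755) or sequence name (190), 379 stayed unmatched, and counts were summed to 22271 genes. Pseudogene names and 205 shared names came from RefSeq symbols. The columns of 20 tethered libraries were not used. Sequences of these genes were not used here.

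The counts of 6 libraries went into edgeR 4.0.16 under R 4.3.3 (quasi-likelihood fit with robust dispersion, TMM factors, 3 genotypes in 1 fit, 3 residual degrees of freedom) on genes passing a filter with a minimum count of 10 and a minimum total of 15. A gene was called at an adjusted p under 0.05 (Benjamini-Hochberg). SE is the absolute log2 fold change divided by the square root of F. For genes with 0 to 3 reads in a genotype, ratios come from summed counts and effective library sizes, with a floor of 3 reads over the group and exact 95% intervals, which cover counting error only. The test was checked on simulated counts. The members and the gene lists were chosen with earlier results of these data known. Replicate numbers did not pair the samples, as deviations of same-numbered libraries correlated between -0.02 and 0.00.

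Genes named are, per family, the 5 with most reads, up to 4 largest rises and 4 largest falls per comparison (called, at least 5 CPM in the higher genotype, no overlap), those next to the threshold, pseudogenes with 200 or more reads, and up to 3 pathway genes per direction and comparison with the smallest p. Neighbours named in a cluster, fbxa-215 and genes named as overlapping were chosen after their values were seen, as were fsn-1, ftr-1, fog-2 and skr-10. Alternatives covered 5 other scalings, DESeq2 1.42.0, other filters, the 2 genotypes compared alone, a replicate block, the largest transcript alone, each library left out and another total for shares. Protein-coding genes alone and leaving out the most-read gene of each family were added after seeing the data.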

Additional observations from a re-analysis of the deposited data

How the results depend on the processing

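Library totals were lowest in the double mutant, where 14 members had 0 reads, and the part of depth in these zeros was not tested. Counts within 1.5 times of the reported ones were found for all families under median-ratio factors and the largest transcript alone. In mut-16(DE6R) against WT, fbxa members called higher numbered 15 with library totals, 12 with totals leaving out F56H9.8 and 1 with DESeq2 (3 reported). Over all 5312 genes tested, those called higher numbered 3394, 2938 and 482 in these settings (1173 reported). Members of fbxc called higher numbered 2 with library totals and 0 with DESeq2 (1 reported). Members of fbxb called lower numbered 26 without a filter and 29 with a filter of 10 WT reads (17 reported). Coding fbxa members called lower numbered 28 of 40 tested (44 of 57 reported with pseudogenes). In the double mutant against WT, fbxa members called higher numbered 3 without a filter and 1 with DESeq2 (6 reported), fbxc members called higher 2 with library totals, 2 with totals leaving out F56H9.8 and 2 with upper quartile factors (0 reported), and fbxb members called lower 29 without a filter and 29 with the WT filter (17 reported). In the double mutant against mut-16(DE6R), fbxa members called higher numbered 4 with mitochondrial scaling, 1 without a filter and 2 with DESeq2 (7 reported), fbxb members called lower 5 with only these genotypes (10 reported), fbxc members called lower 5 with only these genotypes, 4 with DESeq2 and 5 for coding genes (8 reported), and fbxc members called higher 1 each with totals without F56H9.8 and upper quartile factors (0 reported). A filter that tests more or fewer genes, or a count over coding genes alone, moves counts by construction. The cause of the other moves was not tested.

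Without F56H9.8 and mitochondrial genes, fbxa shares were 0.384% in the double mutant, 1.36% in mut-16(DE6R) and 1.99% in WT, fbxb shares 0.0903%, 0.395% and 0.921% in these genotypes, fbxc shares 0.0751%, 0.262% and 0.475%, and those of the 3 families 0.550%, 2.02% and 3.38%. The fbxb to fbxa ratio of coding genes was 0.319 in the double mutant, 0.657 in mut-16(DE6R) and 0.850 in WT, and 0.146, 0.114 and 0.354 without the most-read genes. The fbxc to fbxa ratio of coding genes was 0.258 in the double mutant, 0.424 in mut-16(DE6R) and 0.412 in WT, and 0.143, 0.0581 and 0.0908 without the most-read genes.

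Leaving out 1 library gave, in mut-16(DE6R) against WT, 35 to 53 fbxa, 17 to 26 fbxb and 10 to 14 fbxc members lower, and 1 to 3 fbxa, 0 to 0 fbxb and 0 to 1 fbxc members higher. Against WT, the double mutant gave 40 to 56, 17 to 26 and 11 to 15 lower, and 1 to 5 fbxa and 0 to 0 fbxb and fbxc members higher. Against mut-16(DE6R), it gave 33 to 35, 8 to 11 and 3 to 8 lower, and 4 to 7 fbxa and 0 to 0 fbxb and fbxc members higher. With the replicate number as a block, 43 fbxa, 17 fbxb and 13 fbxc members fell in mut-16(DE6R) against WT, 47, 17 and 14 in the double mutant against WT, and 35, 10 and 7 in the double mutant against mut-16(DE6R). The numbers do not pair the samples.

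Library totals turned the sign in mut-16(DE6R) against WT at fbxa-120 (0.34), fbxa-129 (0.65), fbxa-14 (1.07), fbxa-145 (0.77), fbxa-149 (0.37), fbxa-197 (0.89), fbxa-203 (0.49), fbxb-14 (0.14), fbxc-44 (0.16) and skr-18 (0.22), and in the double mutant against WT at mec-15 (0.60) and skr-18 (0.22). Totals without F56H9.8 did so in mut-16(DE6R) at fbxa-129 (0.32), fbxa-14 (0.74), fbxa-149 (0.028), fbxa-197 (0.55) and fbxa-203 (0.15), and in the double mutant at fbxa-122 (0.056), mec-15 (0.76) and skr-18 (0.38), all on the log2 scale.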
